A study of Mus musculus with 8 samples.

Results

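The chromatin of mouse embryonic fibroblasts (MEFs) was mapped on day 1 of Etv2-induced reprogramming by NOMe-seq, as GpC methylation in 2 libraries treated with the GpC methyltransferase M.CviPI and 2 libraries that received no enzyme. These 4 of the series' 8 libraries were chosen by their labels for day and enzyme. The other 4 are control MEFs of day 0, 2 with and 2 without M.CviPI, and are used only where a day 1 value is set against them. Each library was made from 250000 cells. Every day 1 library, treated or untreated, comes from cells in which Etv2 had been induced, so the enzyme is the labelled difference between the groups. The labels give neither strain, embryo age nor the way Etv2 was supplied, and MEFs are a mixed population of primary mesenchymal cells. No label tells if replicate libraries are separate cultures, and the p-values below then measure only the spread between these samples, which may be technical.

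In NOMe-seq, nuclei are incubated with M.CviPI, which methylates cytosines that follow a guanine wherever DNA is not wrapped around a histone octamer or held by another protein, and bisulfite sequencing then reads the methylation. A high GpC level therefore marks accessible DNA, and the level without enzyme is the background of the readout, since mammalian cells methylate few GpC sites outside CpG. Active promoters typically carry a nucleosome-depleted stretch at the transcription start, followed by a well-positioned nucleosome, and regularly spaced nucleosomes give accessibility a repeat along the fiber. Etv2 belongs to the ETS factors, which bind GGAA-type motifs, and it directs cells to endothelial and blood fates.

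The treated libraries held 792322 and 810078 sites with 2856034 and 2917131 calls, a call being 1 read over 1 cytosine. The untreated libraries held 1012656 and 991688 sites with 3577740 and 3507942 calls. The median site had 3 reads, the smallest number in the files, and from 87.6% to 88.1% of sites had exactly 3. Levels are therefore pooled methylated calls over all calls of a region, on the autosomes and at sites with at most 100 reads unless another set is named. Sites fell alike on annotated classes in all 4 libraries: from 8.79% to 9.02% of sites lay within 1000 bp of a gene end, from 53.7% to 53.9% elsewhere in genes and from 37.1% to 37.4% between genes. In these bulk libraries, fewer accessible cells and less accessibility per cell cannot be told apart.

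The 4 protein-coding promoter windows with the most calls in the treated libraries show what was read. The sequences are RefSeq windows of GRCm38.p6, written 5′ to 3′ on the gene's strand from 250 bp before to 50 bp after the annotated start. Capitals mark the GC dinucleotides whose cytosine, on either strand, was read in a treated library. Nudt3 lies at chr17:27623403-27623702 on the minus strand, Hrh1 at chr6:114397686-114397985 on the plus strand, Csnk1e at chr15:79441788-79442087 on the minus strand and 4931408C20Rik at chr1:26687411-26687710 on the minus strand.
Nudt3: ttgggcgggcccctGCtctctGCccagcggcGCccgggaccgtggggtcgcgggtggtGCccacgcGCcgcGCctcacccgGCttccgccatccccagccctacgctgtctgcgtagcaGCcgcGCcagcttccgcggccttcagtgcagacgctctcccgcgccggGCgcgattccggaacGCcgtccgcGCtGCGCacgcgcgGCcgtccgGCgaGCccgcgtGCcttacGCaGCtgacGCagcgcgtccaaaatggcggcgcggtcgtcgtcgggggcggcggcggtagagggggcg
Hrh1: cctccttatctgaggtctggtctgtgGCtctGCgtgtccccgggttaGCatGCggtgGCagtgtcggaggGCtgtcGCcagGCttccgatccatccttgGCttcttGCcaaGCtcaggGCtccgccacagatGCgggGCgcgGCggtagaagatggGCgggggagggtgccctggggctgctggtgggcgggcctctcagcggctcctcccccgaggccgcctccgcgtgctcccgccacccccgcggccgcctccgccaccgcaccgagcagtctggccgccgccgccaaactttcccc
Csnk1e: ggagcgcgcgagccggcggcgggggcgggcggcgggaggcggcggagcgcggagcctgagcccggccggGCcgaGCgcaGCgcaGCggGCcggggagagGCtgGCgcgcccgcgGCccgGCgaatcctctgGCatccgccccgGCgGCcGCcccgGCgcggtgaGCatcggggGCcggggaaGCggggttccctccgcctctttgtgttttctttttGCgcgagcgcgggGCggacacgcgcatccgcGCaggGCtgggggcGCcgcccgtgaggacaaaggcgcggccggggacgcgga
4931408C20Rik: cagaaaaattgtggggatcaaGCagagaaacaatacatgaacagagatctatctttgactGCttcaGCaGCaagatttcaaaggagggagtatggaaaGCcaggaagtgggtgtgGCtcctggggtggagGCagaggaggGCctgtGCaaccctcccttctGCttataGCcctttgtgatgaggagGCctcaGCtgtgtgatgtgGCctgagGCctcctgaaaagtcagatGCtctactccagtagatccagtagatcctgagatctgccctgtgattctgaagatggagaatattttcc

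Nudt3 encodes a hydrolase of diphosphoinositol phosphates, and its CpG-rich window was the most methylated of the 4. It had 67.4% methylated of 46 calls in treated replicate 1 and 94.4% of 36 calls in replicate 2, with 0 of 9 calls methylated in untreated replicate 1. In replicate 2 all 3 reads were methylated at 10 of the 12 sites read, from 8 to 130 bp before the start. Hrh1, the histamine H1 receptor gene, had 41.7% of 36 calls and 21.8% of 55 calls, with no call in either untreated library. Csnk1e, a casein kinase of the circadian clock, had 33.3% of 48 calls and 48.5% of 33 calls, and 9 untreated calls also stood at 33.3%. The window of 4931408C20Rik holds no CpG and had 38.1% of 113 calls and 31.9% of 47 calls, against 0% of 42 and 1.47% of 68 calls without enzyme. Replicates of these windows were read at partly different sites, each by few reads, so their difference says little. Over all promoter windows the cytosines read were GpC sites followed by A, T or C, with none in another context apart from window edges where the preceding base is not held. Sites followed by G, where CpG methylation would mix in, were absent. Treated levels in these windows were 39.2% and 40.5% at GCA, 45.3% and 44.0% at GCT and 47.6% and 49.6% at GCC, and the strands differed by less than 1 point.

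M.CviPI raised the autosomal GpC level to 30.4% in both treated libraries, from 1.10% and 1.09% in the untreated ones. The difference was 29.3 percentage points, with an SD of 0.0216 among the treated and 0.000778 among the untreated libraries. No treated library overlapped an untreated one. Here and for the 6 other contrasts of this kind below the exact two-sided permutation test of 2 against 2 libraries gave p = 0.33 (the same after adjustment over the 7), the smallest it can give. Background was thus a small part of the treated signal. Among sites of exactly 3 reads, 36.2% had no methylated read in each treated library, 41.5% had 1, 18.7% had 2 and from 3.61% to 3.65% had all 3. Without enzyme 97.1% to 97.2% of such sites had none.

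The number of reads at a site mattered for both groups. Treated levels stood at 29.9% at sites of 3 reads in both libraries and at 30.3% and 29.8% at sites of 5 to 9 reads. They were 36.9% and 36.8% at sites of 10 to 100 reads, where the untreated level also rose, from 0.984% and 0.995% at 3 reads to 2.80% and 2.58%. Single sites were seldom read again: 22863 were shared by the treated libraries, 2.91% of the sites of replicate 1 and 2.84% of those of replicate 2. Across shared sites, which are not independent replicates, the levels of the 2 libraries correlated at r = 0.13 for sites of 3 to 4 reads, 0.41 for 5 to 9 and 0.72 for 10 to 100. Regional values below are therefore given also for sites under 10 reads where that moved them.

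Transcription starts were the most accessible class. Sites within 1000 bp of any annotated gene end stood at 34.6% and 34.4% in the treated libraries, gene bodies at 29.9% and 29.8% and intergenic DNA at 30.1% and 30.2%. The untreated levels of the 3 classes were 1.13% and 1.14%, 1.01% and 1.00%, and 1.21% and 1.22%. Gene ends exceeded gene bodies by 4.65 ± 0.0518 points (SD, n = 2) with enzyme and by 0.126 ± 0.0111 without it, a net difference of 4.52 points (exact permutation p = 0.33). With strand known, the excess lay mainly at starts: protein-coding starts had 38.6% and 37.8%, against 32.2% and 31.1% at transcript ends. Intergenic DNA and gene bodies differed by 0.113 points net of background, and that direction depended on how deep sites were handled: the difference was -0.592 points at sites under 10 reads and -0.960 with sites over 100 reads kept.

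The start profile had a peak and a dip on a base-pair scale. From 150 bp before to 50 bp after the start, the treated libraries reached 54.1% and 55.3%, while the flanks 500 to 1000 bp away had 33.0% and 32.7%. The untreated libraries had 1.72% and 1.79% at the centre and 1.14% and 1.20% in the flanks. Centre minus flank was 21.9 ± 1.05 points (SD, n = 2) with enzyme and 0.588 ± 0.0141 without, a net 21.3 points (exact permutation p = 0.33). The highest 50 bp bin began at the start itself, with 58.2% and 58.5%. Accessibility rose gradually over the upstream side, from 40.1% and 43.9% in the bin at -200 bp to 48.1% and 48.2% at -150 bp. Downstream it fell to 45.9% and 45.8% in the bin at 50 bp and to 32.6% and 33.9% in the bin at 100 bp. A second, lower rise followed in the bin at 200 bp, with 42.8% and 37.9%, whose replicates differed by more than those of the dip. Flanks were higher on the transcribed side, 34.4% and 33.4%, than upstream, 30.9% and 31.6%. Transcript ends had no such peak: their centre stood at 33.1% and 31.6% and their flanks at 32.6% and 31.1%.

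**Figure D1:**
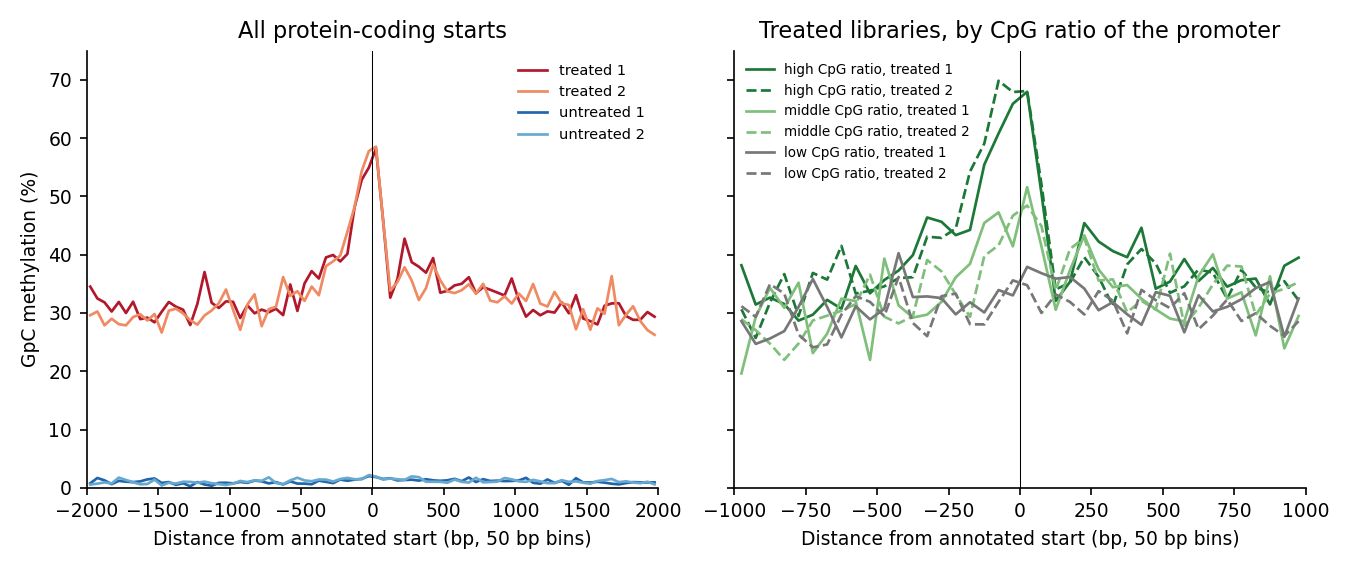
GpC methylation (%) in 50 bp bins by distance from the annotated start of protein-coding genes, for the 4 day 1 libraries (left, lines are libraries) and for the treated libraries by the CpG ratio of the promoter window (right, solid replicate 1, dashed replicate 2). The treated libraries peak at 58.2% and 58.5% in the bin at the start and the untreated ones stay near the axis, and the peak belongs to windows of high and middle CpG ratio.

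The peak depended on the CpG content of the promoter. The 20085 autosomal protein-coding windows were divided by their observed over expected CpG ratio into low (under 0.35, 7034 windows), middle (3221) and high (0.6 or more, 9830), of which 1535 windows held a call in treated replicate 1 and 1460 in replicate 2. Windows of high ratio reached 58.2% and 61.9%, those of middle ratio 45.6% and 41.2% and those of low ratio 33.4% and 31.97%. The 3 classes did not overlap between replicates, and their untreated levels ran from 0.811% to 2.22%. Around the start, genes of high ratio fell from 63.3% and 66.6% at the centre to 33.7% and 34.6% at 100 to 200 bp downstream. Genes of low ratio had 34.2% and 32.6% at the centre and 36.03% and 32.5% downstream, with no dip. These groups differ in base composition and in how many GpC sites they hold (a mean of 28.8 in low and 44.0 in high windows), and the part of that in the difference was not tested.

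Promoters with an ETS-type motif were among the more accessible. Motifs were searched as exact letters on both strands, and a match is a description of the letters, not a bound site. Shares of windows are over all 32851 windows of any gene type. Levels, also those over all windows, are from the 20085 autosomal protein-coding ones. CCGGAAGT, a strong ETS motif, was in 3.89% of all 32851 windows, and windows with it had 65.2% and 64.5% in the treated libraries against 49.8% and 51.6% without it. Within windows of high CpG ratio the values were 67.04% and 66.5% with it and 57.2% and 61.4% without it, from 1162 and 1047 calls in 85 and 95 windows. CCAAT, the box bound by NF-Y and in 37.4% of all windows, gave 66.8% and 69.7% with and 53.7% and 57.3% without in high-ratio windows. GGGCGG, the GC box of SP factors and in 35.7% of windows, gave 59.1% and 63.9% with and 55.1% and 54.9% without there. TATAAA, in 13.6% of windows, went with lower values over all windows, 41.6% and 40.3% against 51.6% and 53.2%. Among high-ratio windows the values were 56.3% and 49.9% against 58.3% and 62.4%, from 437 and 427 calls with the motif. TGACTCA, the AP-1 site and in 5.202% of windows, gave 45.9% and 38.6% with and 51.1% and 52.9% without over all windows. Its high-ratio windows had 55.7% and 42.4%, from only 409 and 144 calls, against 58.3% and 62.2% without it. CACGTG, the E-box in 7.15% of windows, gave 58.7% and 55.2% with and 49.9% and 52.1% without over all windows. Its high-ratio windows had 61.8% and 60.2% against 57.6% and 62.1% without it, so the direction there differed between replicates. Values over all windows mix the CpG classes. The day 0 treated libraries had 65.6% and 65.7% with the ETS-type motif and 56.1% and 56.2% without it, and the difference between the days was not tested.

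Accessibility was even from chromosome to chromosome. With enzyme, 17 of the 19 autosomes lay between 29.5% and 30.9% in both libraries, while without enzyme they lay between 0.910% and 1.27%. Chromosome 17 stood above that range with 33.2% and 33.3%, and chromosome 9 with 31.4% and 31.9%. Chromosome 9 also had the highest untreated level of the autosomes, 2.98% and 2.99%. At sites under 10 reads, chromosome 17 had 29.9% and 30.1% and chromosome 9 had 30.2% and 30.6%, with 1.17% and 1.22% untreated, so both stood apart through sites of 10 to 100 reads. The X chromosome was lower than the autosomes, at 28.6% and 29.1% from 17215 and 17183 calls, with 1.16% and 1.06% untreated. X minus autosomes was -1.53 ± 0.339 points (SD, n = 2) with enzyme and 0.016 ± 0.0705 without (exact permutation p = 0.33), and the net difference was -0.692 points at sites under 10 reads. The Y chromosome had 421 and 417 treated calls at 24.9% and 29.98%, with untreated levels of 2.15% and 3.44%, too few for a statement on its level.

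**Figure D2:**
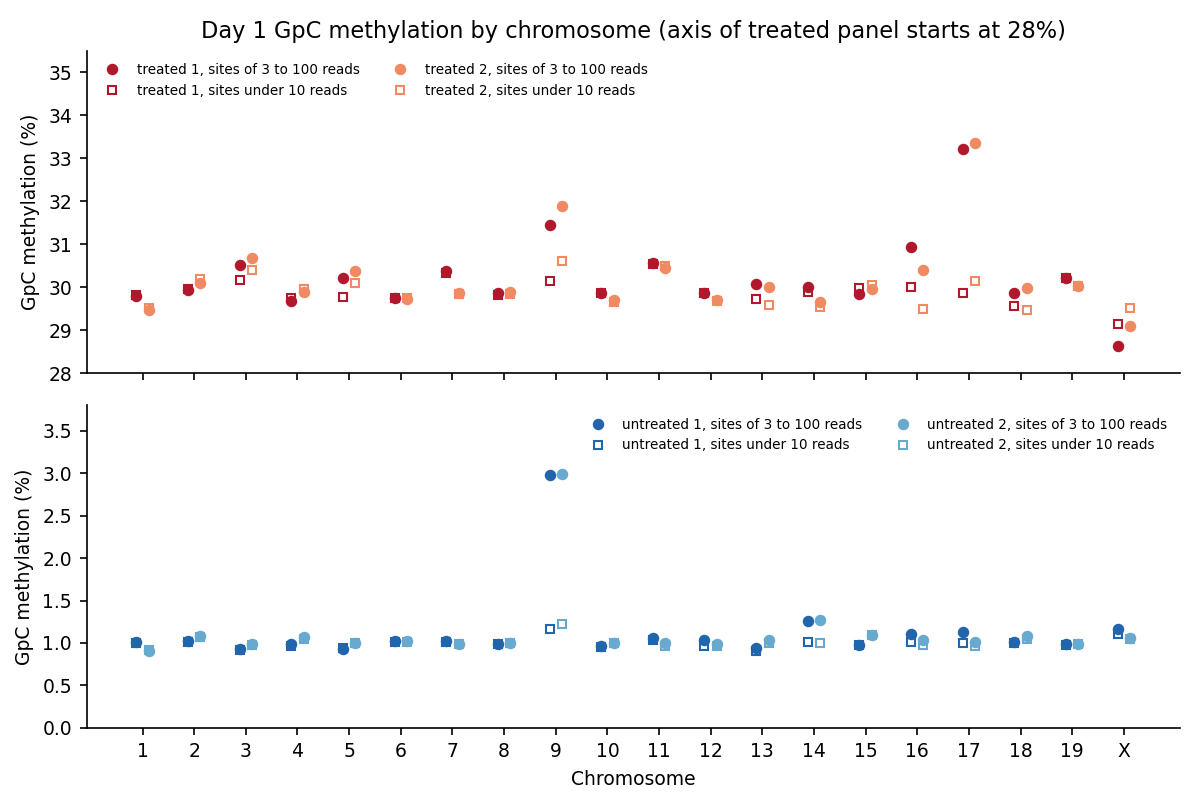
GpC methylation (%) of chromosomes 1 to 19 and X in the treated libraries (upper panel, axis from 28%) and the untreated libraries (lower panel), with filled circles for sites of 3 to 100 reads and open squares for sites under 10 reads. Chromosomes 17 and 9 stand above the others as circles and near the others as squares.

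Accessibility rose with the number of genes nearby. In windows of 1 Mb on the autosomes, at sites under 10 reads, the treated libraries had 27.997% and 28.1% over the 270 windows without a protein-coding gene. They had 28.8% and 28.8% at 1 to 2 genes, 29.5% and 29.5% at 3 to 5, 29.8% and 29.9% at 6 to 10, 30.3% and 30.3% at 11 to 20 and 31.2% and 31.0% at 21 or more, over 242 windows. The SD of the replicates was at most 0.132 points within a class, and the untreated means stayed between 0.971% and 1.04%. With sites of up to 100 reads the order was broken at 6 to 10 genes, which stood at 31.1% and 31.2%. Among the 2103 windows with at least 200 calls in each library, every window was higher in both treated libraries than in both untreated ones, and the treated mean ran from 25.8% at the 5th to 33.2% at the 95th percentile. Across these windows, which share libraries and are not independent, treated replicates correlated at r = 0.42 and the treated mean correlated with the gene count at r = 0.25. Sites within 1000 bp of gene ends were kept in all these windows, and their part in the rise with gene count was not tested.

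Intergenic DNA became less accessible with distance from genes. At sites under 10 reads the treated levels were 29.9% and 29.9% at 1 to 5 kb from the nearest gene end, 29.9% and 29.6% at 5 to 10 kb, 29.1% and 29.4% at 10 to 50 kb, and 28.6% and 28.7% at 50 to 100 kb. They were 28.1% and 28.5% at 100 to 500 kb and 27.3% and 26.6% beyond 500 kb. The nearest and the farthest class differed by more than their replicates did, and the untreated levels ran from 0.859% to 1.12% without that order. With sites of up to 100 reads kept, the class at 1 to 5 kb had 33.3% and 33.1% and the class at 100 to 500 kb had 29.3% and 29.5%, the latter with an untreated level of 2.38% and 2.34%.

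Gene bodies differed little with gene length and had no trend along the gene. The 18374 protein-coding genes over 2000 bp were divided into 4 equal groups by annotated length. Their bodies had 30.4% and 30.6% in the shortest group (up to 9086 bp), 30.3% and 30.04% in the second, 30.1% and 30.05% in the third and 29.7% and 29.6% in the longest (from 51531 bp). Shortest minus longest was 0.809 ± 0.213 points (SD, n = 2) with enzyme and 0.00937 ± 0.0446 without (exact permutation p = 0.33). The 216 genes over 500 kb stood lowest, with 28.5% and 28.6% treated and 1.01% and 0.967% untreated. Genes of 200 to 500 kb had 29.7% and 29.6%. At sites with at least 5 reads the direction reversed, to -2.82 points net. Along the bodies of 7568 genes over 20 kb with known strand, 10 equal segments from start to end lay between 29.5% and 30.4%, in no order.

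**Figure D3:**
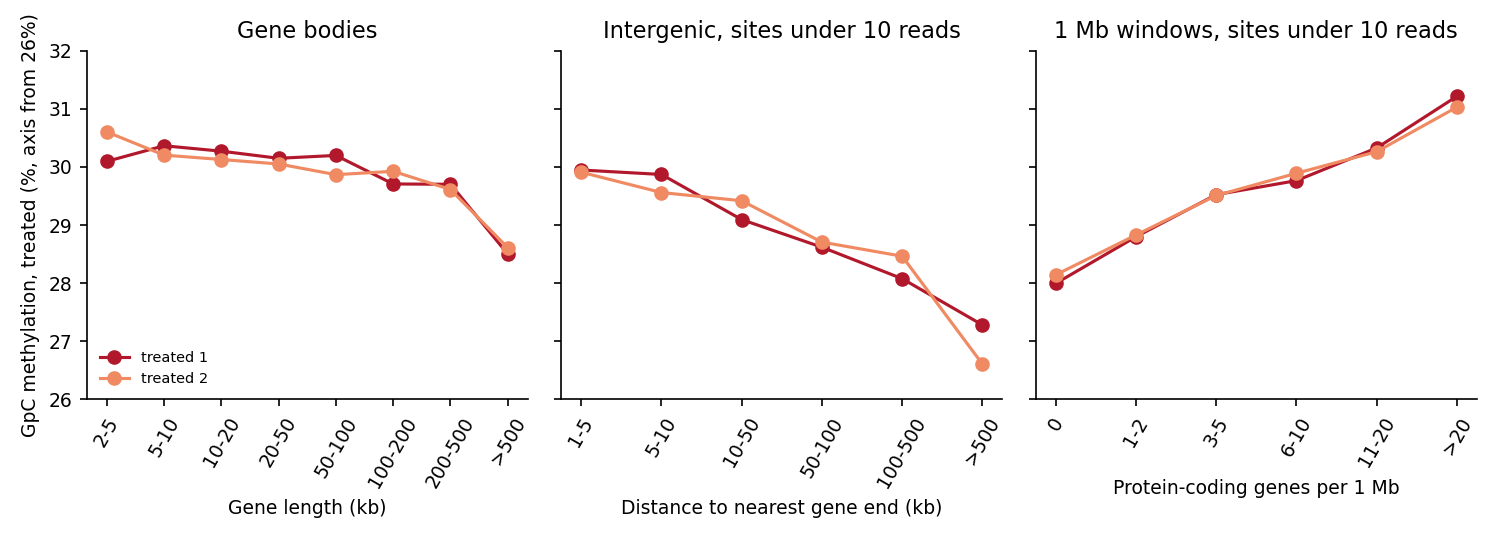
GpC methylation (%) of the 2 treated libraries by gene length (gene bodies, left), by distance of intergenic sites from the nearest gene end (middle, sites under 10 reads) and by protein-coding genes per 1 Mb window (right, sites under 10 reads), on an axis from 26%. Levels fall to 28.5% and 28.6% in genes over 500 kb and to 27.3% and 26.6% far from genes, and rise to 31.2% and 31.0% in gene-dense windows.

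Pairs of neighboring sites showed a dip and a nucleosome-sized first maximum that were not seen in the untreated libraries. For each distance, the Pearson correlation between the levels of both sites of a pair was taken over all autosomal pairs, as a description across sites. Sites 1 to 10 bp apart correlated at r = 0.66 in both treated libraries. The correlation was below 0 from 51 bp, lowest at 77 and 82 bp (r = -0.11 and -0.12), and rose to a maximum of 0.23 and 0.21 at 174 and 180 bp. A second, lower maximum of 0.19 lay at 375 and 377 bp. The untreated libraries began at 0.33 and 0.34 and fell toward 0 without a dip below it. At the distances searched for the second maximum they reached 0.10 and 0.14, at 408 and 351 bp. The correlation in a 30 bp range of distances at the first maximum minus that in a 30 bp range at the dip was 0.32 in each treated library and -0.03 and -0.05 in the untreated ones (exact permutation p = 0.33). At sites of exactly 3 reads the dip was deeper, -0.18 in both treated libraries, the first maximum was 0.15 and 0.13 at 179 and 166 bp, and the second was 0.04 and 0.06. The untreated libraries reached 0.04 and 0.02 at the distances searched for that second maximum. At sites with at least 5 reads no dip below 0 was seen: the 2 ranges had 0.38 and 0.43 in replicate 1 and 0.35 and 0.44 in replicate 2, and the net difference between treated and untreated libraries shrank from 0.355 to 0.0912. Spikes of the untreated libraries at 238 bp, 0.16 in both, were not present at sites of 3 reads, where they stood at 0.03 and 0.02.

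**Figure D4:**
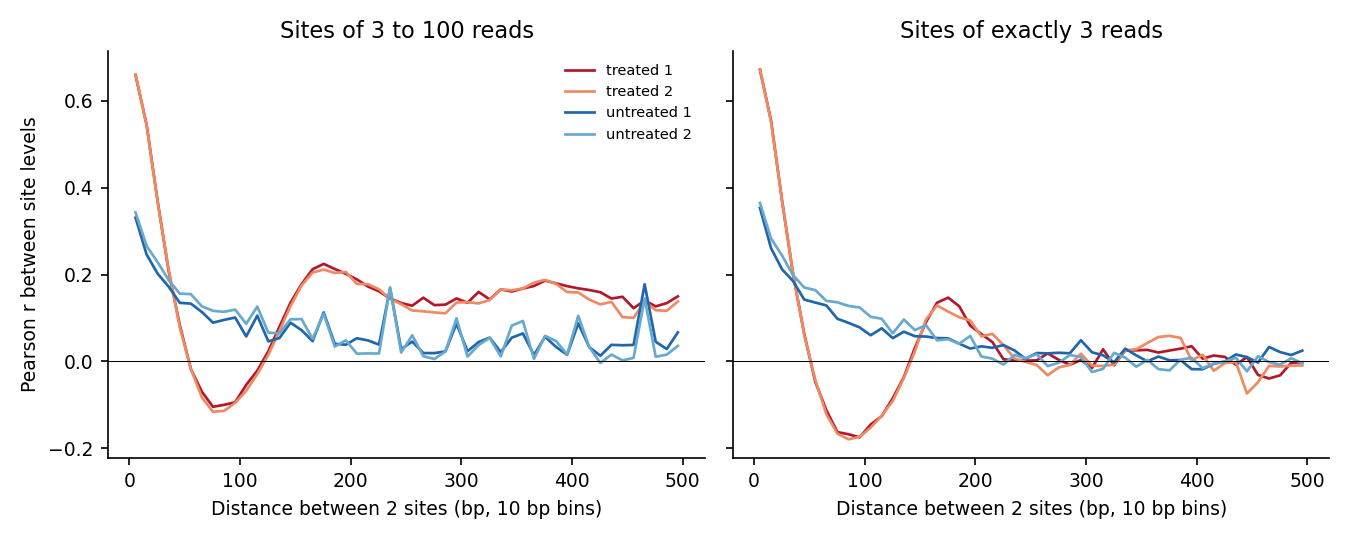
Pearson correlation between the GpC levels of 2 sites by the distance between them (bp, bins of 10 bp) in the 4 day 1 libraries, for sites of 3 to 100 reads (left) and of exactly 3 reads (right). Only the treated lines fall below 0 near 80 bp and rise again to a maximum between 166 and 180 bp.

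Gene bodies, the class with the most pairs, had their dip at 94 and 85 bp (r = -0.15 and -0.18), their first maximum at 171 and 167 bp (0.14 and 0.10) and returned to -0.03 in both treated libraries between the maxima. Over the same search ranges, untreated gene bodies had lowest values of 0.04 and 0.06. Their highest values were 0.06 and 0.10, at 183 and 120 bp. Within 1000 bp of protein-coding starts, with far fewer pairs, the dip lay at 99 and 103 bp (-0.11 and -0.01) and the first maximum at 149 and 166 bp (0.16 and 0.29). The untreated libraries had maxima of 0.14 and 0.17 at 182 and 152 bp there, after a lowest value above 0. Between genes the dip lay at 77 and 75 bp (-0.07 and -0.10), and the highest values that followed were 0.35 and 0.35 at 221 and 219 bp. The untreated libraries also had high correlations between genes at such distances, 0.37 and 0.39 at 238 bp and 0.33 and 0.34 at 409 and 353 bp, so the intergenic maximum cannot be told apart from a pattern present without enzyme. Whether the repeat differs between these classes was not tested. Pairs within 150 bp often lie on the same reads of 150 bp, and fragments ran from 200 to 500 bp, so neighboring values are not independent. Sites 1 bp apart, which always lie on opposite strands, correlated at only 0.22 and 0.18, against 0.73 and 0.74 at 3 bp. In promoter windows, where strand is known, pairs 3 to 30 bp apart correlated at 0.70 and 0.74 on the same strand, over 9525 and 9134 pairs. On opposite strands they correlated at 0.32 and 0.52, over 345 and 288 pairs.

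Gene by gene, the enzyme effect was found nearly everywhere. Of 10166 gene loci (each gene extended by 1000 bp at both ends) with at least 20 calls in each day 1 library, 10133 were higher with enzyme and 0 lower at an adjusted p under 0.05 in edgeR's quasi-likelihood test, which is 99.7% of those tested (10133 also at an unadjusted p under 0.05, and 10131 higher and 0 lower in limma). The median rise was 5.56 on the log2 odds scale. Both treated libraries were above both untreated ones at 10129 loci, 99.6%. At gene ends alone 270 of 283 genes were called, 95.4%. With D1 treated replicate 1 left out the count was 138 of 622, and with untreated replicate 1 left out it was 464 of 553. The 33 loci that were not called had a median treated level of 14.3% and a median untreated level of 3.82%, and the library with the fewest calls had a median of 24 calls there against 54 over all tested loci.

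The smallest p-values belonged to loci with very many calls. Sfi1, a gene for a centrosome protein at chr11:3131850-3203347, had 30.01% of 88757 calls and 29.5% of 86597 calls with enzyme and 1.14% and 1.09% without, a rise of 5.23 ± 0.0869 (SE) on the log2 odds scale. The lncRNA gene AY036118, at chr17:39848112-39898385, had 67.7% and 67.5% against 1.60% and 1.04%, a rise of 7.31, and Gm36876 had 63.1% and 68.9% against 1.32% and 1.51%, a rise of 7.08. Gm33862, which lies within the Sfi1 locus, had 31.6% and 31.1%, and 2700054A10Rik had 26.4% and 27.2%. Their sites had between 12.6 and 25.4 treated reads each, far over the median of 3. Whether copies elsewhere in the genome add to these reads was not tested. The largest p-values were those of Pidd1, a gene of p53-induced cell death (12.1% and 2.08% against 4.44% and 0%, adjusted p = 0.53 in edgeR), Zkscan17 (8.16% and 7.69% against 1.82% and 5.83%, adjusted p = 0.40), Gm32954, Prss22 and Fam160b2. After each library was centred on its median locus, limma called 3 loci, 0.0295% of those tested, all upward: AY036118, Sfi1 and Gm36876. For Sfi1 the direction depends on the scale, as its edgeR rise of 5.23 was below the edgeR median of 5.56. The limma values add 1 to each count, which lowers the rise most where calls are few, and their median rise was 4.65. The part of call number in these 3 calls was not tested.

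The highest loci of treated replicate 1 were above the median in replicate 2 as well, and the lowest were on both sides of it. Among 2851 protein-coding loci with at least 100 calls in each treated library, the replicates correlated at r = 0.16 across loci, with medians of 29.9% in both. The 8 loci chosen as highest in replicate 1 had a mean of 63.9% there and of 53.1% in replicate 2, which the choice did not use, and all 8 were above the replicate 2 median. They were Atf2, a bZIP transcription factor (74.5% and then 57.6%), Taco1, an activator of mitochondrial translation (68.9% and 47.8%), Gm51464 (65.9% and 61.7%), Cdk8, the Mediator kinase (64.8% and 57.7%), and Lars2, a mitochondrial leucyl-tRNA synthetase (63.5% and 57.0%). Gphn, the receptor anchor gephyrin, had 58.5% and 47.3%, Zc3h7a had 58.3% and 59.8%, and the adaptor gene Shb had 57.0% and 35.7%, which is below the 95th percentile of replicate 2 (39.4%). Except for Shb, with 3.22 reads per site, these loci had from 5.37 to 23.0 reads per treated site, and the part of that in their level was not tested. Their untreated levels were between 0% and 6.09%.

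The 8 lowest loci of replicate 1 averaged 14.5% there and 30.8% in replicate 2, with 4 of 8 below its median. The Rab regulator gene Madd had 7.83% and then 40.4%, the ARF exchange factor gene Cyth3 12% and 43.0%, and the RNA-binding protein gene Igf2bp3 15.2% and 31.8%. Akap12, a scaffold of protein kinase A, had 15.3% and 26.8%, Rtkn2 16.2% and 26.8%, Acss3 16.2% and 30.1%, the transcription factor gene Ebf3 16.5% and 23.6%, and Oasl1 16.5% and 23.9%. All 16 of these loci passed the edgeR test against the untreated libraries, as did 99.7% of all tested loci, so passing does not set them apart.

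**Figure D5:**
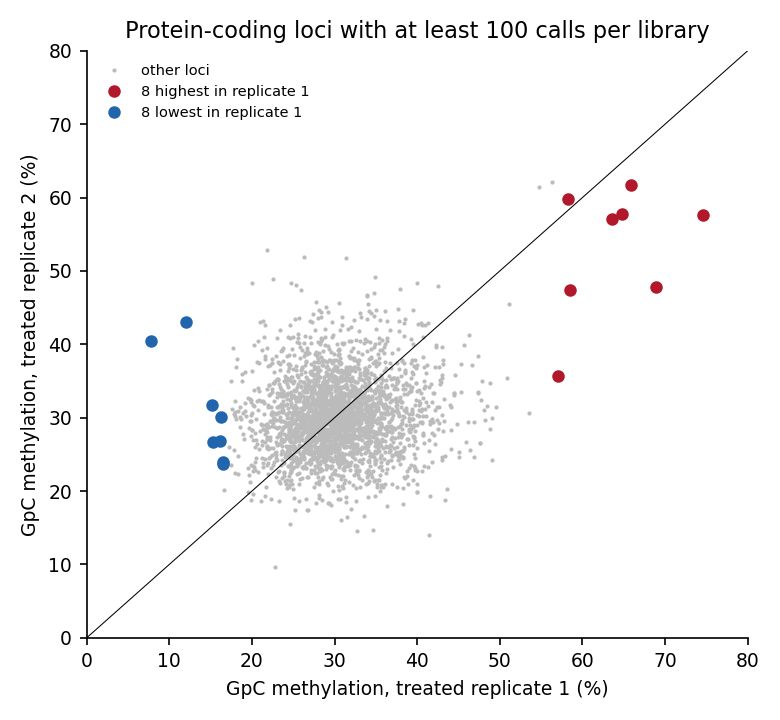
GpC methylation (%) of 2851 protein-coding loci in treated replicate 1 (horizontal) and replicate 2 (vertical), with the 8 highest loci of replicate 1 in red, the 8 lowest in blue and the line of equality. The red loci are at 35.7% or higher in replicate 2 and the blue ones scatter from 23.6% to 43.0%.

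The lists of cell type and housekeeping genes were read thinly. At gene ends, the treated libraries had 40.7% and 31.9% for fibroblast and matrix genes, 35.2% and 21.3% for endothelial genes, 30.7% and 23.3% for blood genes, 27.4% and 37.3% for haematoendothelial transcription factors and 34.2% and 41.7% for mesenchymal transcription factors. Housekeeping genes had 37.9% and 32.4%, and all protein-coding genes had 35.9% and 35.48%. Endothelial genes in replicate 1 lay above fibroblast genes in replicate 2, so these lists overlapped, with 179 and 183 against 135 and 163 calls. Ribosomal protein genes had 30.1% and 31.8% from 925 and 899 calls, and olfactory receptor genes 26.2% and 29.7% from 1432 and 1614 calls. Histone genes, taken by symbol prefix, had 34.0% and 34.7%, germline genes 29.0% and 37.7%, muscle and heart genes 42.0% and 27.5%, liver and gut genes 25.5% and 34.4%, neural genes 16.9% and 22.5%, and pluripotency genes 58.3% and 36.1% from 12 and 86 calls. At whole loci, where 99.7% of all tested loci were called upward, all tested members were called in each list except the endothelial one, with 7 of 8, shares at or near that background: 8 of 8 fibroblast genes, 4 of 4 blood genes, 5 of 5 haematoendothelial and 5 of 5 mesenchymal transcription factors. Their median rises of 4.95 (fibroblast), 5.45 (endothelial), 5.55 (blood), 6.34 and 4.68 compare with 5.54 over all protein-coding loci.

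Members with 20 calls at their ends in both treated libraries give only a part of the values behind these lists. No blood, neural, pluripotency, or liver and gut gene reached that number. Neither did any haematoendothelial or mesenchymal transcription factor. Fn1, which encodes the matrix protein fibronectin, had 48.7% of 39 calls and 33.3% of 24 calls, with 0 of 22 methylated in untreated replicate 2. Among endothelial genes, the co-receptor gene Eng had 42.4% of 33 and 22.5% of 89 calls, Plvap, a protein of fenestral diaphragms, 23.8% of 42 and 25.9% of 27, and the secreted factor gene Egfl7 28.6% of 21 and 16.1% of 31. Egfl7 was the endothelial locus that edgeR did not call (rise of 1.68 ± 0.989 (SE) on the log2 odds scale, adjusted p = 0.089). Eef2, the elongation factor, had 31.96% of 97 and 20.5% of 88 calls, with 0.917% and 0% untreated. Of the ribosomal protein genes, Rpl32 had 35.48% and 35.6%, Rpl10a 40% and 50% and Rpl31 66.7% and 19.05%. The intermediate filament gene Des had 40.5% and 12.5%, the meiotic gene Stra8 35.3% and 50%, Olfr374 30.3% and 63.3% and H1f8 37.3% and 30%. H1f8 encodes an oocyte linker histone, which is replication-independent, and entered the histone list, meant for replication-dependent genes, through its prefix. The marker genes thus gave no check of the fibroblast label beyond these levels, which measure accessibility and not expression.

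Set against the control MEFs of day 0, 3 of the 7 contrasts had the smallest p their test allows. The enzyme raised the autosomal level by 29.3 points on day 1 and by 26.8 on day 0, a difference of 2.51 points. Gene ends exceeded gene bodies by 4.52 points net on day 1 and by 7.78 on day 0, and the start centre exceeded its flanks by 21.3 and 26.03 points. Each of these had an exact permutation p of 0.056, the smallest that 36 arrangements of the days allow, and an adjusted p of 0.13 over the 7 contrasts, so none passed the threshold. The centre of the starts stood at 54.1% and 55.3% on day 1 and at 59.3% and 59.9% on day 0, from largely different starts. The nucleosome swing was 0.35 on day 1 and 0.29 on day 0 (exact permutation p = 0.33, adjusted p = 0.58). The X, intergenic and gene length contrasts had exact permutation p-values of 0.67, 0.78 and 0.67 (adjusted p = 0.78 each). The untreated autosomal level differed too, 1.10% on day 1 and 2.34% on day 0. So did the treated level of the mitochondrial genome, 54.6% and 54.0% on day 1 and 63.3% and 64.1% on day 0. Day 0 libraries also had fewer calls, and more of their sites lay within 1000 bp of a gene end. Those shares on day 0 were 10.6% and 9.61% with enzyme and 12.8% and 13.2% without. The part of these points in the net differences was not tested.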

How the data were processed

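The authors deposited 1 file per library with 1 line per cytosine, on mm10 per the submitters' processing notes. Its columns hold, as deposited, the fraction of methylated reads and the count of reads; both units were read from the values. For the aligner, the caller and the handling of duplicates nothing is given in the sources used here. Methylated calls are the rounded product of fraction and count. All sites have at least 3 reads, and those over 100 were set apart.

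Genes, strands and promoter windows came from RefSeq tables of GRCm38.p6: 34614 genes (21887 protein-coding and 12727 lncRNA), 27025 with strand, and 21263 protein-coding start windows. No genome sequence was used. Levels were pooled per library in Python 3.11.15 (numpy 2.4.6, pandas 2.3.3). Day 1 groups were compared by exact two-sided permutation of the library values, and days by permuting them within treated and within untreated libraries. Loci were tested with edgeR 4.0.16 (R 4.3.3) on methylated and unmethylated counts, the library as a term, without a replicate block and with Benjamini-Hochberg adjustment at 0.05; limma 3.58.1 was an alternative. Tested on simulated data for 10166 loci, edgeR found 2%, 8%, 44% and 96% of changes of 1, 2, 3 and 5 on the log2 odds scale, with 1 false call. The simulation had a base level of 2%, an SD of 0.3 in ln odds and 50 changed loci of each size. In the data 99.7% of loci were called and the median untreated level was 0.802%, so these rates do not carry over to the real test. Contrasts were chosen, and gene lists written from general knowledge, with earlier results of these data known. Named genes were, by rule, list members with 20 calls in both treated libraries at their ends (at most 4 a list, 1 of them not reported here), the 8 highest and 8 lowest loci of treated replicate 1, the 5 smallest and 5 largest edgeR p-values, and the 4 promoter windows with the most treated calls. Alternatives covered deep sites, a minimum of 5 reads, site means, windows, call minimums, the replicate block and leaving out each library; sites under 10 reads were added after seeing the data. Where a library has few calls, counting error limits precision, and reads are not known to be independent molecules.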

Additional observations from a re-analysis of the deposited data

Results flagged for a closer look

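Nuclear sites over 100 reads were left out of the levels above and were methylated in both groups. Pooled over all such sites, the treated libraries had a mean level of 49.6% (49.5% and 49.7%) and the untreated ones 31.7% and 30.8%. They are few, 282 and 290 sites with and 272 and 270 without enzyme, but held 7.11% and 7.17% of the treated and 6.06% and 6.10% of the untreated calls. In the treated libraries 151 and 158 of them lay on chromosome 9, and 38 on chromosome 2 in each held the most calls, 106294 and 107812, at 51.6% and 51.8%. Without enzyme, sites on chromosome 2 stood at 33.7% and 32.7% and those on chromosome 15 at 2.58% and 3.35%, so the untreated level of deep sites differed from place to place.

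The mitochondrial genome, which has no nucleosomes, also carried a signal outside the nuclear comparisons. Its mean treated level was 54.3% (54.6% and 54.0%, over 690 and 689 sites with 26439 and 26839 calls), against 1.66% and 1.54% without enzyme. Of its sites 68.0% and 61.5% were over 50% methylated with enzyme and 0 of 687 and 0 of 688 without it. Both results were singled out because they lie in sites that the comparisons do not use and exceed the untreated level.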

How the results depend on the processing

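The autosomal, X, gene end, start centre and nucleosome contrasts kept their direction under every alternative run for them, and so did the autosomal difference between days (2.51 points, 2.48 to 2.55 with each library left out). The replicate block is not counted here, as it cannot change these contrasts. Leaving out each library gave 29.28 to 29.31 points for the autosomal level, -1.78 to -1.30 for X, 4.49 to 4.56 for gene ends, 20.5 to 22.0 for the start centre, 0.344 to 0.366 for the nucleosome contrast, 0.0465 to 0.179 for intergenic DNA and 0.649 to 0.951 for gene length. At sites with at least 5 reads the X contrast was -7.62 points, gene ends 9.54, the start centre 14.8 and the nucleosome contrast 0.0912. Intergenic minus gene body reversed to -0.960 points with all sites kept, to -0.506 as the mean of site fractions and to -0.592 at sites under 10 reads, and was 7.80 at sites with at least 5 reads. Short minus long gene bodies reversed to -2.82 at sites with at least 5 reads. The cause was not tested.

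The replicate numbers of treated and untreated libraries are shared only as numbers, with 2 pairs, and the labels do not tie them to a culture or day. With the replicate block the contrasts of levels are unchanged by arithmetic, such as 29.3 points for the autosomes, since both groups hold both replicate numbers. That is no check of them. With the block, edgeR called 9864 loci and 218 gene ends. Fewer calls then come with fewer residual degrees of freedom.

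Loci called numbered 10131 in limma, 5651 with all 8 libraries fitted (5655 tested), 13122 at 10 calls, 5407 at 50 calls, 3 after centring on the median and 9815 to 10831 with a library left out. Gene ends called numbered 270 in limma, 43 with all 8 libraries (43 tested), 943 at 10 calls (1070 tested), 36 at 50 calls (36 tested), 2 after centring and 138 to 464 with a library left out. The numbers tested moved with the minimum and with the libraries required.

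Of the alternatives for named loci, 245 kept direction and call, 14 lost the call, 1 gained it and 15 reversed. After centring on the median locus, Pidd1 stood at -3.92, Prss22 -3.83, Gm32954 -3.68, Zkscan17 -3.61, Fam160b2 -3.30, Oasl1 -1.79, Madd -1.11, Akap12 -1.07, Cyth3 -1.02, Acss3 -0.91, 2700054A10Rik -0.67 and Ebf3 -0.26 (log2 odds), which reads as below the median rise. Without treated replicate 1, Gm32954 was at -2.95, Pidd1 at -0.67 and Fam160b2 at -0.23, while without untreated replicate 1 they were at 4.17, 3.38 and 5.84. Depth limits single sites most, since most have 3 reads.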
